A study of Danio rerio with 4 samples.

Results

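Hox genes encode homeodomain transcription factors that give cells their position along the head-to-tail axis, and they lie in clusters. They were taken here as every gene whose symbol in the platform annotation names a zebrafish hox gene of clusters a to d, which gave 47 genes with 110 probes, of 15528 named genes and 43603 probes on the array. The 47 genes belong to 7 clusters, called hoxaa, hoxab, hoxba, hoxbb, hoxca, hoxcb and hoxda, and carry paralog numbers from 1 to 13. The measurements come from hearts dissected by hand from zebrafish embryos at 21 to 23 hours post fertilization (hpf) and pooled, 1 single-colour Agilent array a sample. Embryos of the line Tg(hsp70l:bmp2b)fr13, which carry bmp2b under the heat-shock promoter hsp70l, made up 2 samples, called Bmp2b arrays 1 and 2. Wild-type embryos made up the other 2 samples, called wild-type arrays 1 and 2. Both groups were heat-shocked at 18 hpf for 30 min at 37 °C. The promoter hsp70l acts in every tissue that responds to heat, so the ligand was not limited to the heart.

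Within a cluster the low paralog numbers lie toward the 3′ end and are in general expressed earlier and farther forward in the body, while the high numbers mark the trunk and tail. Retinoic acid, a signal made from vitamin A, switches on 3′ hox genes in hindbrain and forward mesoderm, and Hox proteins bind DNA together with cofactors of the TALE class, Meis and Pbx. In zebrafish, hoxb5b acts downstream of retinoic acid beside the heart field and limits how many cells join the heart. Bmp2b belongs to the secreted BMP signals, and the design asks what an excess of it does to cardiac tissue.

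The transgene was read first. The normalized log2 level of bmp2b was 13.74 and 14.03 on the Bmp2b arrays, against 7.86 and 8.09 on the wild-type arrays, so the labels hold. Levels are quantile-normalized log2 intensities, and a log2 difference of 1 is a doubling. Of the heart muscle markers fixed for this work, all 17 found by symbol on the array had a probe on test. Of these, 0 lay below background on all 4 arrays. The Bmp2b arrays were dimmer, with a 75th percentile of raw intensity of 93.5 and 250, against 445 and 424 on the wild-type arrays. Background was set at 2 times the 5th percentile of raw intensity, which was 50 and 48 on the Bmp2b arrays against 33 and 32 on the wild-type arrays. After normalization that background corresponded to a log2 level of 7.16 on Bmp2b array 1, 6.39 on Bmp2b array 2, and 6.07 and 6.08 on the wild-type arrays. The wild-type arrays differed from each other by 0.0715 log2 units (root mean square over 20 bright probes with 5 spots each), less than the 0.125 that the spread between spots gives. The same difference was 0.725 between the Bmp2b arrays, where spots give 0.122. Wild type may therefore count as 1 sample. The outcome of that fit is given for the hox calls and for some, not all, of the other calls. The Bmp2b arrays shared 1 slide, whereas wild type was on 2 others, so genotype and slide cannot be told apart.

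The hox genes hoxb1a, hoxb2a, hoxa3a, hoxb5a and hoxb9a were called higher in Bmp2b hearts, by 1.95-fold to 3.16-fold, and 0 hox genes were called lower. For hoxb9a the value on Bmp2b array 1 was that array's background. The test covered the 27 hox genes with a probe that exceeded background on 2 or more arrays, and 22 of these did not pass (limma, Benjamini-Hochberg over all probes tested, adjusted p under 0.05). Among all genes tested, 9.0% were called higher and 8.22% lower. By probe, 6 of 43 hox probes on test were called higher and 0 lower, where 6.82% and 9.03% of all probes were. With the wild-type mean counted as 1 sample, 0 hox genes passed in limma, with a smallest adjusted p of 0.276, or 0.138 with trend and robust variance priors. 0 hox genes passed with either wild-type array left out, or when slide entered as a random block with the correlation set to 0.5. In pooled tissue, more cells that express a gene and more RNA per cell cannot be told apart.

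**Figure D1:**
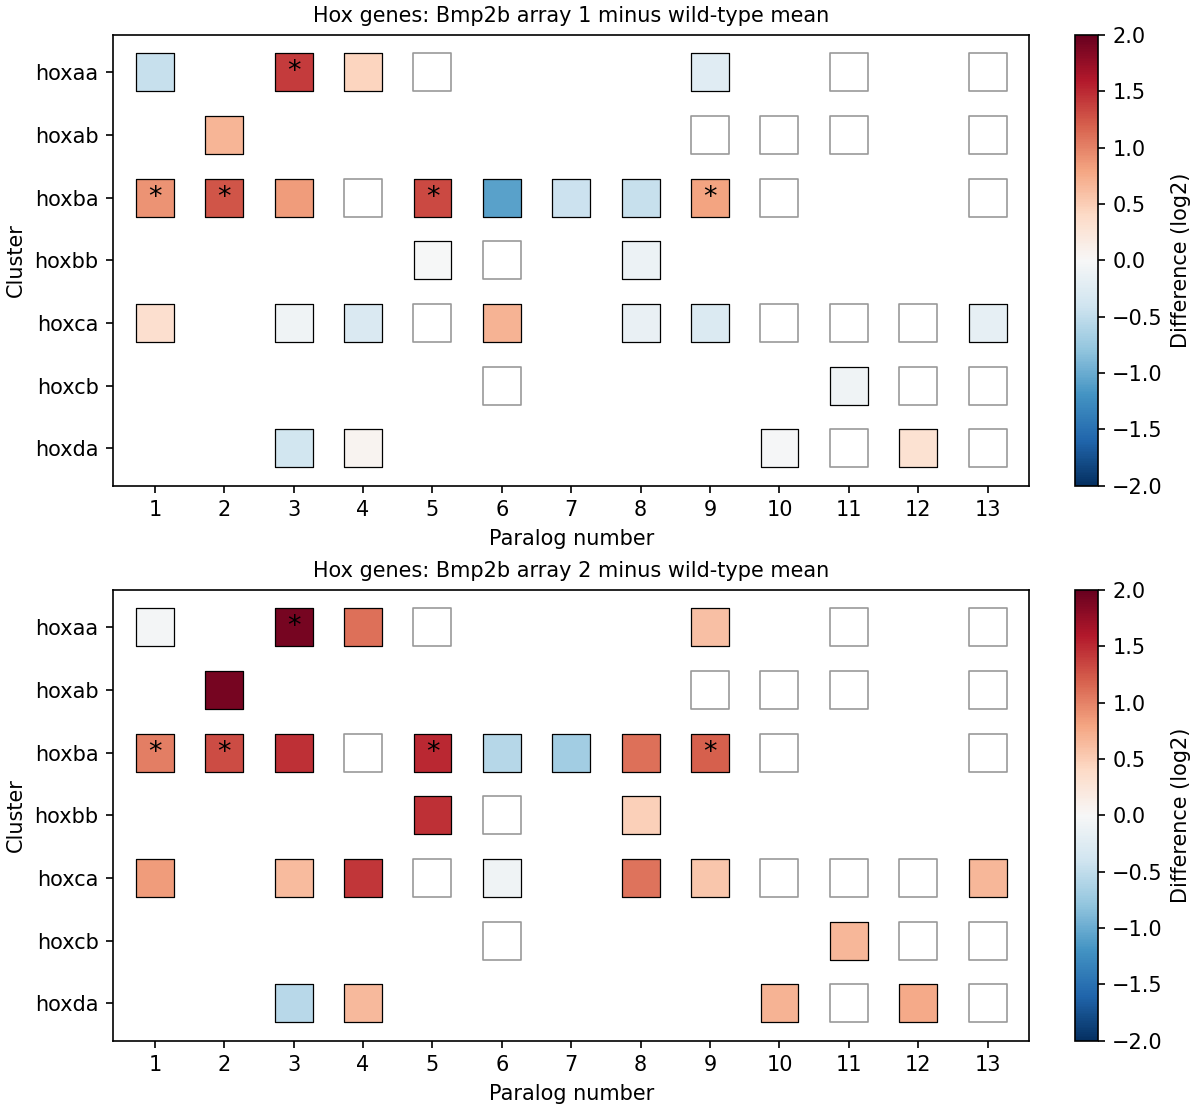
Difference in normalized log2 level between Bmp2b array 1 (top) or Bmp2b array 2 (bottom) and the mean of the wild-type arrays, for each hox gene by cluster (rows) and paralog number (columns). Filled squares are the 27 genes on test and open squares the 20 that were not. Asterisks mark the 5 called higher, 4 of which lie in hoxba, among them hoxb9a, at background on array 1. After normalization 12 genes are above wild type on array 1 and 22 on array 2.

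Of the genes with paralog numbers 1 and 2, hoxb1a and hoxb2a rose. hoxb1a, which gives the fourth hindbrain segment its identity, had normalized log2 levels of 8.51 and 8.62 on the Bmp2b arrays, against 7.61 and 7.60 on the wild-type arrays. The groups do not overlap, and each is tight. Its log2 fold change was 0.96 ± 0.11 (SE; limma adjusted p = 0.0234). A second, dimmer hoxb1a probe gave only 0.21 as log2 fold change (adjusted p = 0.229), so the 2 probes differ in size though not in sign. On Bmp2b array 1 its raw intensity was 51, just over that array's background of 50. That background was normalized to 7.16, above the probe's wild-type mean of 6.98, so its sign there says little. The hoxb1a value did not pass when arrays were scaled to their 75th percentile (1.02, adjusted p = 0.0653).

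hoxb2a, the next gene of that cluster on the array, had levels of 8.92 and 8.97 on the Bmp2b arrays, against 7.71 and 7.63 on the wild-type arrays. The 2 Bmp2b arrays are nearly level and both stand above wild type. The log2 fold change was 1.28 ± 0.11 (limma adjusted p = 0.0191), from a single probe, and its adjusted p was 0.0526 with scaling to the 75th percentile. hoxa2b, a selector gene of the second pharyngeal arch, had levels of 7.85 and 9.08 on the Bmp2b arrays, against 7.14 and 7.21 in wild type. Both Bmp2b arrays are above wild type, but they lie far apart. Its log2 fold change of 1.29 ± 0.45 did not pass (limma adjusted p = 0.126), nor did that of its other tested probe, 0.97 (adjusted p = 0.203). That other hoxa2b probe was below background on Bmp2b array 1. hoxc1a and hoxa1a had log2 fold changes of 0.59 ± 0.22 and -0.25 ± 0.18 that did not pass (limma adjusted p = 0.138 and 0.383). The sign of hoxa1a turned with scaling to the 75th percentile (0.73) and with the processed intensities (0.0055), and its second tested probe was at 0.22.

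Among the genes with paralog number 3, which in mice pattern the third pharyngeal arch and its glands, hoxa3a had the largest log2 fold change of the hox genes on test. Its levels were 8.19 and 8.70 on the Bmp2b arrays, against 6.77 and 6.80 on the wild-type arrays. Both Bmp2b arrays stand clear of wild type. The log2 fold change was 1.66 ± 0.21, or 3.16-fold (limma adjusted p = 0.0248), and a second probe at 0.97 did not pass (adjusted p = 0.0524). That second probe lay below background on Bmp2b array 1, and the remaining hoxa3a probe on all 4 arrays. hoxb3a was the brightest hox probe, at 9.75 and 10.37 on the Bmp2b arrays, against 8.81 and 9.0 on the wild-type arrays. The groups do not overlap, yet its log2 fold change of 1.16 ± 0.25 did not pass (limma adjusted p = 0.0542). hoxd3a gave opposite signs on its tested probes, -0.47 ± 0.16 for the brighter and 1.14 ± 0.28 for the dimmer (limma adjusted p = 0.120 and 0.0692). Both probes were below background on Bmp2b array 1. hoxc3a was at 0.28. In the current gene table the model of hoxa3a overlaps those of hoxa4a and hoxa5a, and that of hoxb3a overlaps hoxb4a, hoxb5a and hoxb6a, so a probe for one may read transcripts shared with the others.

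The genes with paralog number 4, which in mice include regulators of the neck and upper trunk, were dim. hoxa4a, hoxc4a and hoxd4a had log2 fold changes of 0.77, 0.56 and 0.36 and did not pass (limma adjusted p = 0.120, 0.556 and 0.336). On Bmp2b array 1 the value of hoxa4a was that array's background, and that of hoxd4a lay below it. hoxb4a was not on test, with 1 of its probes above background on Bmp2b array 2 only. hoxc4a was at 5.88 and 7.61 on the Bmp2b arrays, against 6.15 and 6.23 on the wild-type arrays. Array 2 is above wild type, and the value on array 1 lies below that array's background.

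hoxb5a, whose group responds to retinoic acid in the forward trunk, was the only hox gene with 2 probes past the threshold. Its brighter probe had levels of 8.23 and 8.42 on the Bmp2b arrays, against 6.86 and 6.98 on the wild-type arrays. The other had 7.90 and 7.86 on the Bmp2b arrays, against 6.51 and 6.53 on the wild-type arrays. On both probes every Bmp2b value is above every wild-type value. The log2 fold changes were 1.41 ± 0.13 and 1.36 ± 0.11 (limma adjusted p = 0.0204 and 0.0190).

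hoxb5b, the duplicate of hoxb5a in cluster hoxbb and the gene known in zebrafish to restrain the heart field, did not pass. Its brighter probe read 6.78 and 8.25 on the Bmp2b arrays, against 6.79 and 6.78 on the wild-type arrays. Array 1 is level with wild type, below its own background, and array 2 is well above. The log2 fold change was 0.73 ± 0.53 (limma adjusted p = 0.376), and 0.22 on the second tested probe (adjusted p = 0.782).

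In the middle of hoxba no gene passed. hoxb6a was at 7.04 and 7.56 on the Bmp2b arrays, against 8.30 and 7.97 on the wild-type arrays (log2 fold change -0.83 ± 0.24, limma adjusted p = 0.0914). hoxb7a was at 8.05 and 7.79 on the Bmp2b arrays, against 8.45 and 8.51 on the wild-type arrays (-0.56 ± 0.14, limma adjusted p = 0.0716). For both genes each Bmp2b value lies below each wild-type value, though hoxb6a was below background on Bmp2b array 1 (raw intensity 47). The other hoxb7a probes were at -0.38 and -0.36, and both were below background on the 2 Bmp2b arrays. Both genes stayed negative under each of the 5 other scalings tried. hoxb8a, between hoxb7a and hoxb9a, was at 7.04 and 8.61 on the Bmp2b arrays, against 7.51 on both wild-type arrays. The wild-type value lies between the 2 Bmp2b values, though hoxb8a too was below background on Bmp2b array 1 (raw intensity 47). Its log2 fold change of 0.32 ± 0.56 did not pass (limma adjusted p = 0.713).

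hoxc6a, of the same paralog number as hoxb6a, was the only hox gene on test above background on all 4 arrays whose level was higher on Bmp2b array 1 than on array 2 apart from hoxb7a. It had 8.70 and 7.92 on the Bmp2b arrays, against 8.23 and 7.78 on the wild-type arrays, and its log2 fold change was 0.31 ± 0.33 (limma adjusted p = 0.546). The gap between the wild-type arrays is wider here than for any other hox probe on test. hoxc8a and hoxb8b had log2 fold changes of 0.47 and 0.18 that did not pass, and the second tested hoxc8a probe was at -0.22.

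Of the genes with paralog numbers 9 to 13, hoxb9a rose, on a single tested probe near background. It had levels of 7.16 and 7.55 on the Bmp2b arrays, against 6.34 and 6.37 on the wild-type arrays (log2 fold change 1.00 ± 0.17, limma adjusted p = 0.0379). Its raw intensity was 50 on Bmp2b array 1, which is that array's background level, and 142 on array 2, against 56 on both wild-type arrays. The difference on array 1 is thus that of the background itself after normalization. The value did not pass with cyclic loess (adjusted p = 0.0635) or without the filter on dim probes (adjusted p = 0.0525), and its 3 other probes were below background on all 4 arrays. hoxa9a, hoxc9a, hoxd10a, hoxc11b, hoxd12a and hoxc13a had log2 fold changes between 0.13 and 0.53, and none of the 6 passed.

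**Figure D2:**
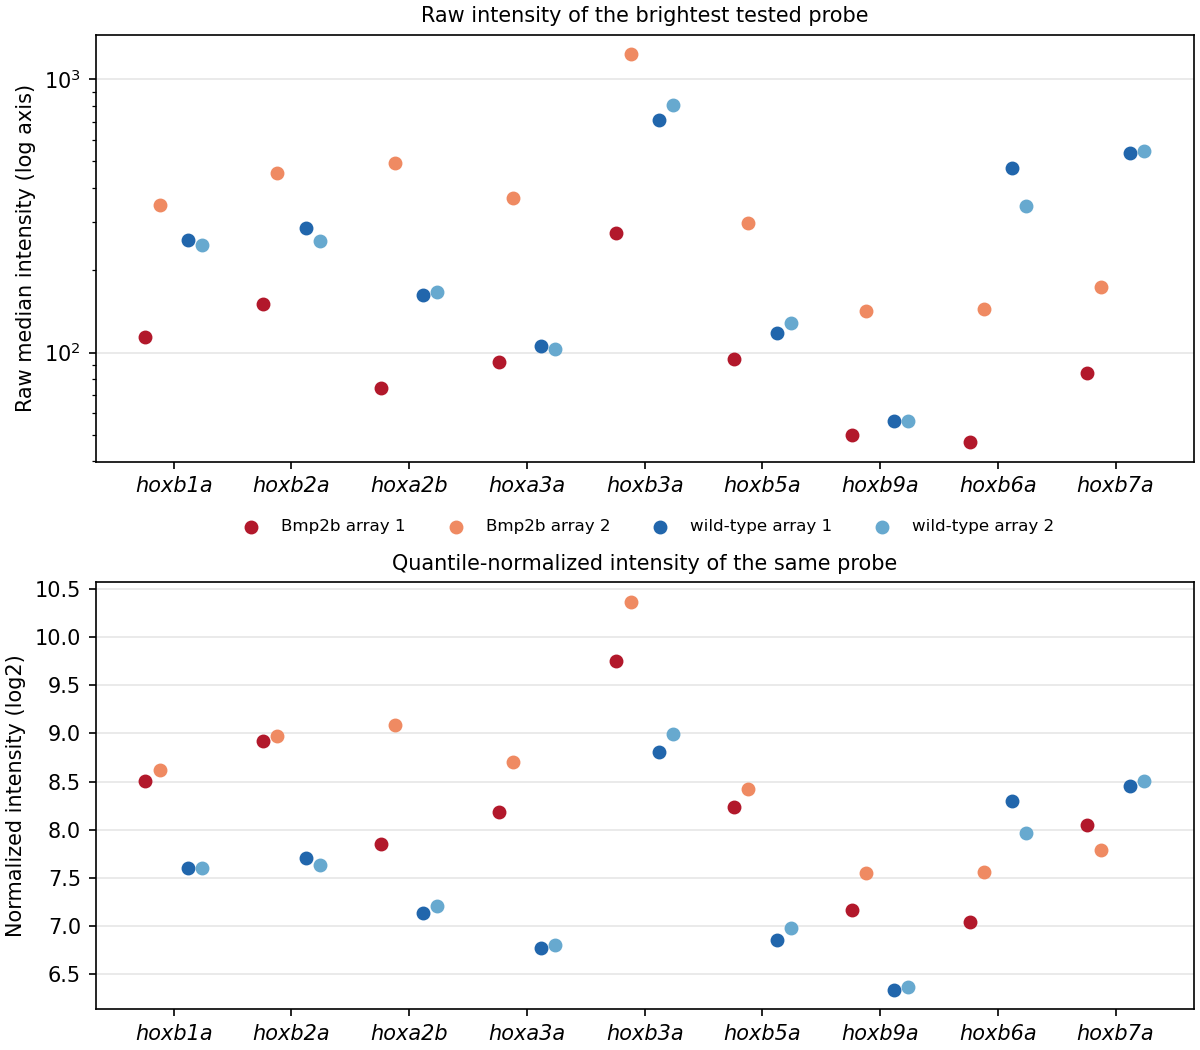
Raw median intensity (top, log axis) and quantile-normalized log2 intensity (bottom) of the brightest tested probe of 9 hox genes, 1 point an array, Bmp2b arrays left of wild-type arrays. In the raw values Bmp2b array 1 lies below wild type for every gene shown, and after normalization it lies above for the 7 genes at left and below for hoxb6a and hoxb7a.

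The rise depends on comparing arrays after normalization. In raw intensity hoxb1a read 114 and 346.5 on the Bmp2b arrays, against 258.5 and 247 on the wild-type arrays, and hoxb5a read 95 and 297, against 118 and 128. Of the 27 genes on test, 24 had a raw intensity on Bmp2b array 1 below both wild-type arrays, and 22 had one on Bmp2b array 2 above both. The raw ratio to the wild-type mean had a median of 0.559 on array 1 and 1.69 on array 2, while the 75th percentile of all spots stood at 0.215 and 0.575 of wild type. On array 1 only 8 of the 27 genes lay above background, hoxa2b, hoxa3a, hoxb1a, hoxb2a, hoxb3a, hoxb5a, hoxb7a and hoxc6a. Of these, 7 were higher there than the wild-type mean after normalization, all but hoxb7a. That count favours a rise, because the 8 were picked by their level on array 1. The wild-type means of hoxa3a (6.78) and hoxb5a (6.92) lay below that array's normalized background of 7.16, so passing it fixed their sign. For 18 of the 27 the wild-type mean was below the level to which array 1's background was normalized. Their values on array 1 therefore say little in either direction unless they exceed that level.

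The genes were also read by position. Of the 13 genes with paralog numbers 1 to 4, 12 were on test, 3 rose and 9 did not pass, with a median log2 fold change of 0.68. Numbers 5 to 8 had 12 genes with 8 on test, of which 1 rose (median 0.31). Numbers 9 to 13 had 22 genes with 7 on test, of which 1 rose (median 0.29), namely hoxb9a, at background on Bmp2b array 1. Among all genes tested 9.0% were called higher, and the counts of these last groups lie near that share. The median over all 27 was 0.36, where that of all genes tested was 0.014. The order of the 3 groups held only in the main scaling, which joins background correction and quantile normalization. Quantile normalization without background correction gave medians of 0.94, 0.35 and 0.49. In each of the 5 other scalings numbers 5 to 8 had a lower median than numbers 9 to 13, as in 1.32, 0.87 and 1.32 with scaling to the 75th percentile. That scaling moved the median of all probes tested to 0.28, against -0.06 with quantile normalization. No difference between these position groups was tested.

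Seen by cluster, 4 of the 5 genes that rose were in hoxba, among them hoxb9a, which was at background on Bmp2b array 1. In hoxba 11 genes were measured and 8 were on test, with a median log2 fold change of 0.98 and a range of -0.83 to 1.41. hoxaa had 1 of 4 genes on test higher, hoxa3a. hoxca, with 11 genes and 7 on test, had 0 called in either direction and a median of 0.31 (0.13 to 0.59). In hoxda 0 of 4, in hoxbb 0 of 2, and in hoxab and hoxcb 0 of 1 gene each were called. Among all genes tested 9.0% were called higher and 8.22% lower, so 0 calls among so few genes do not set a cluster apart. Clusters also differed in brightness. Genes on test above background on all 4 arrays were 5 of 8 in hoxba, 1 of 7 in hoxca and 1 of 4 in hoxaa. They were 1 of 1 in hoxab and 0 in hoxda, hoxbb and hoxcb. Over the 6 scalings the median of hoxba lay between 0.98 and 1.37 and that of hoxca between 0.31 and 1.35, and with scaling to the 75th percentile hoxca was the higher of the pair. Whether clusters differ was not tested.

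With quantile normalization the 2 Bmp2b arrays gave different pictures of the family. On array 1 the median difference from the wild-type mean was -0.026 and 12 of 27 genes were higher. On array 2 it was 0.76 and 22 were higher. This contrast depends on the scaling, since the medians were 1.26 and 1.22 with scaling to the 75th percentile, and 0.69 and 1.99 with processed intensities. On array 1, 19 of the 27 genes were at or below background. For 24 of the 27 genes array 2 was above array 1, the exceptions being hoxb7a, hoxc6a and hoxd3a. Paralog numbers 1 to 4 were above wild type on both arrays by their medians, 0.39 and 1.06. Numbers 5 to 8 had medians of -0.13 and 0.78, and numbers 9 to 13 of -0.083 and 0.67. In these 3 groups, 5 of 12, 3 of 8 and 0 of 7 genes on test were above background on array 1. The array 1 median of each of these groups thus rests on values at or below background. For numbers 1 to 4 it falls between hoxa4a (raw intensity 50, that array's background) and hoxc1a (41). For numbers 5 to 8 it falls between hoxb8b (36) and hoxc8a (34). A call with 2 arrays a group favours genes that are alike on both, and the called genes had 0.90 and 1.02 for hoxb1a, 1.25 and 1.30 for hoxb2a, 1.31 and 1.5 for hoxb5a, and 1.40 and 1.92 for hoxa3a. hoxb9a had 0.81, which is the background of array 1, and 1.19. With Bmp2b array 2 left out the family's median was -0.026, and with Bmp2b array 1 left out it was 0.76. In these fits the spread comes from the wild-type arrays alone. For 15 genes no Bmp2b value fell within the wild-type range or the reverse, 11 higher and 4 lower, where 34.9% of all genes were higher and 33.8% lower in this sense.

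A further 20 hox genes were not on test. For 13 of them no probe lay above background on any array, among them hoxa5a, hoxc5a, hoxb6b, hoxc6b and hoxb13a. For hoxa10b, hoxa11b, hoxa13a, hoxb4a, hoxc10a and hoxd13a a probe was above background on Bmp2b array 2 and on no other array. The brightest of these was hoxa13a, a gene of the hindmost body and fins, with raw intensities of 28 and 136 on the Bmp2b arrays, against 22.5 and 18.5 on the wild-type arrays. hoxc12b had a probe above background on 1 wild-type array only. None of these values was tested.

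**Figure D3:**
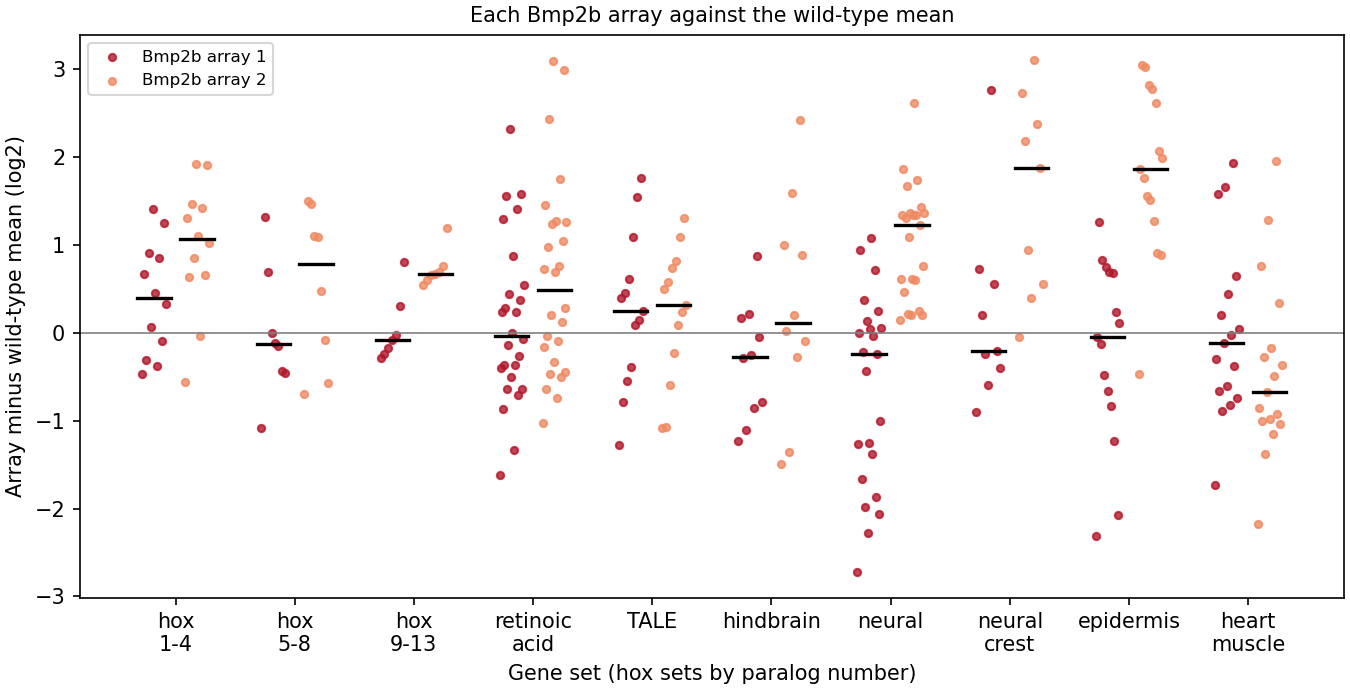
Difference from the wild-type mean in normalized log2 level on Bmp2b array 1 and array 2, for hox genes on test by paralog number and for fixed gene lists; each point is a gene and black bars are medians. Neural, neural crest and epidermal genes have medians of -0.24, -0.21 and -0.048 on array 1 and 1.23, 1.87 and 1.86 on array 2.

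Markers of neural tissue, neural crest and epidermis were mostly higher on Bmp2b array 2 than on array 1. So were most tailbud and endoderm markers on test, while those of some other tissues were not. All 23 neural genes of the list that were found by symbol on the array were on test, 0 were below background on all arrays, and 0 passed. Relative to wild type their median was -0.24 for Bmp2b array 1 but 1.23 for array 2, where 21 of 23 were higher than on array 1. Their summed normalized intensity was 15222 and 38438 on the Bmp2b arrays, against 22726 and 23195 on the wild-type arrays. Neural crest genes, 9 of 12 on test, summed to 6445 and 10715 on the Bmp2b arrays against 2090 and 2128 on the wild-type arrays, with medians of -0.21 and 1.87. Much of that sum is snai2, a crest regulator that rose (2.75, limma adjusted p = 0.0138), at 12.27 and 12.25 on the Bmp2b arrays against 9.48 and 9.55 on the wild-type arrays. With slide as a random block snai2 did not pass (limma adjusted p = 0.0794). The crest genes crestin and ltk were below background on all 4 arrays. Epidermal genes, 15 of 19 on test, had medians of -0.048 and 1.86, and summed to 255753 and 277339 on the Bmp2b arrays against 124554 and 126648 on the wild-type arrays. Much of that sum is krt8, the only called gene of the list (1.08, limma adjusted p = 0.0315). It was at 17.81 and 17.45 on the Bmp2b arrays, against 16.53 and 16.57 on the wild-type arrays, and did not pass with slide as a random block (limma adjusted p = 0.148). Of tailbud and posterior mesoderm genes on test, 6 of 7 were higher on array 2 than on array 1, with medians of -0.13 and -0.039. Of pharyngeal endoderm and endoderm genes 10 of 14 were, with medians of 0.17 on both arrays. Other lists did not follow. On array 2, 0 of 12 blood and endothelium genes, 5 of 11 lateral plate and fin field genes and 8 of 16 skeletal muscle and somite genes were higher than on array 1. Heart muscle genes had medians of -0.12 and -0.67, with 1 of 17 higher on array 2 than on array 1. Of these 17, 2 rose (myh6 by 1.94 and nppa by 1.47), 5 fell (myh7, tnnt2a, mef2ca, tbx5a and ttn.2) and 10 did not pass. With slide as a random block none of these calls held, the smallest limma adjusted p being 0.0807 for myh6. The shares among all genes tested were 9.0% higher and 8.22% lower. The part of these tissues in the hox values of either Bmp2b array was not tested.

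Genes of the hindbrain, whose segments hox genes pattern, were read next. Of 10 on test 0 rose, gbx2 fell and 9 did not pass, counts near the 9.0% and 8.22% of all genes called, and their median log2 fold change was 0.077. On Bmp2b array 2 vgll4l and irx1b were above wild type by 2.42 and 1.59, and neither passed. gbx2, which sets the border of midbrain and hindbrain, was at 10.60 and 10.35 on the Bmp2b arrays, against 11.73 and 11.70 on the wild-type arrays (-1.24 ± 0.14, limma adjusted p = 0.0222, or 0.218 with wild type as 1 sample under trend and robust priors). egr2b, a marker of hindbrain segments, was at 11.16 and 10.52 on the Bmp2b arrays, against 12.02 and 12.01 on the wild-type arrays, and did not pass (limma adjusted p = 0.0517). Transcripts of hindbrain genes were thus measured in samples labelled as heart in both groups. Their summed intensity was 10413 and 10504 on the Bmp2b arrays, against 13087 and 13067 on the wild-type arrays.

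Genes of the retinoic acid pathway, which acts on 3′ hox genes, went both ways. Of 26 on test 5 rose, 1 fell and 20 did not pass, with a median log2 fold change of 0.25 that was -0.036 on Bmp2b array 1 and 0.49 on array 2. Over all genes tested, 9.0% were called higher and 8.22% lower. aldh1a2, the main enzyme of retinoic acid synthesis in mesoderm, was at 10.16 and 10.27 on the Bmp2b arrays, against 7.87 and 7.82 on the wild-type arrays (2.37 ± 0.12, limma adjusted p = 0.0138). It is higher to the same extent on both arrays, and with wild type as 1 sample it passed under trend and robust priors (limma adjusted p = 0.0369) but not without them (0.190). It did not pass with slide as a random block (0.0794), and the other 5 called genes here passed in neither fit with wild type as 1 sample. The receptor gene raraa (1.41), crabp2b, for a protein that carries retinoic acid to its receptor (1.41), the orphan receptor gene nr2f5 (1.43) and dhrs3a (0.92) also rose. dhrs3a was at 7.08 and 7.18 on the Bmp2b arrays, against 6.17 and 6.25 on the wild-type arrays, and below background on Bmp2b array 1. Its duplicate dhrs3b fell by 0.57. The genes of this pair, which went opposite ways, encode an enzyme that turns retinal back to retinol. The genes for the degrading enzymes cyp26a1, cyp26b1 and cyp26c1 had log2 fold changes of 1.43, -0.71 and 1.06 and did not pass. cyp26a1 was at 9.31 and 12.44 on the Bmp2b arrays, against 9.43 and 9.46 on the wild-type arrays, so its higher value stands on array 2 alone.

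The TALE cofactors also divided. meis3, known in zebrafish as a partner of Hox proteins in the hindbrain, was at 12.97 and 12.51 on the Bmp2b arrays, against 11.17 and 11.24 on the wild-type arrays (log2 fold change 1.53 ± 0.20, limma adjusted p = 0.0251). meis1a rose by 1.32, with 11.54 and 11.09 on the Bmp2b arrays against 9.93 and 10.05 on the wild-type arrays. Of the 13 genes on test 2 rose and 1 fell, where 9.0% of all genes were called higher and 8.22% lower. meis2a fell by 0.94, and 10 of the 13 did not pass, among them pbx4 (-0.48) and pbx2 (0.41). The median was 0.41, and 0.24 and 0.31 on the Bmp2b arrays; 4 of the 13 genes were higher on array 2 than on array 1. Of the cdx genes, which switch on hox genes of the trunk and tail, 0 of 3 passed, with log2 fold changes of -0.89 for cdx1a, -0.47 for cdx1b and 0.11 for cdx4. All 3 were below background on Bmp2b array 1, and cdx1b on Bmp2b array 2 as well. Their median was -0.47, and 0.66 when arrays were scaled to the 75th percentile. Among 11 lateral plate and fin field genes on test, osr1 (1.51) and foxf1 (1.16) rose and tbx5a fell by 0.91, and among 7 tailbud genes on test wnt8a fell by 2.52. None of the called genes in these lists turned sign in any of the 6 scalings. With wild type as 1 sample under trend and robust priors, the adjusted p in limma was 0.115 for meis3, 0.208 for meis1a, 0.359 for meis2a, 0.175 for osr1, 0.252 for foxf1 and 0.372 for tbx5a, so these calls were lost. wnt8a passed there (adjusted p = 0.0306) but not without these priors (0.190).

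**Figure D4:**
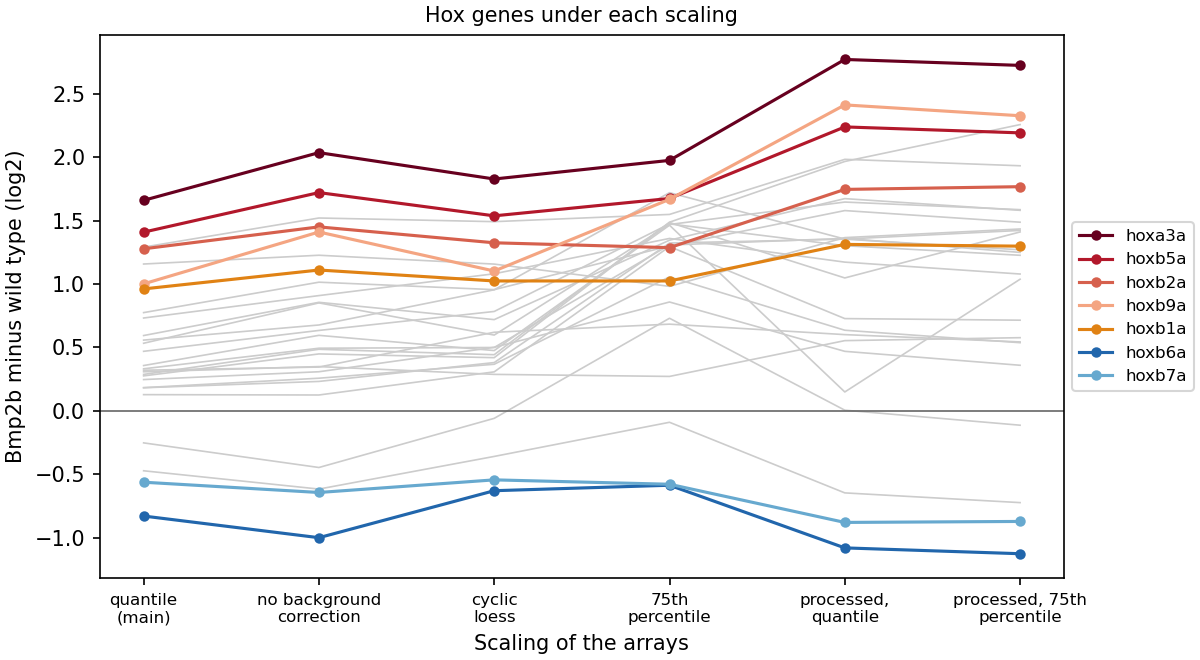
Log2 fold change of Bmp2b over wild type for the 27 hox genes on test under quantile normalization and 5 other scalings. The 5 called genes lie between 0.96 and 2.77 throughout, hoxb6a and hoxb7a stay below 0, and the median of all 27 is 0.36 with quantile normalization and 1.31 with scaling to the 75th percentile.

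The size of the values depended on the scaling more than their sign did. hoxa3a ranged from 1.66 to 2.77 and hoxb1a from 0.96 to 1.31 over the 6 scalings. The number of genes with a positive log2 fold change was 23 or 24 of 27 in each. The number above wild type on Bmp2b array 1 alone was 12 with quantile normalization, 22 with cyclic loess and 25 with scaling to the 75th percentile.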

How the data were processed

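Hearts of 4 samples, 2 a group, were measured with 200 ng of total RNA (integrity number above 8) each, per the labels' protocols. The authors deposited raw median intensity per spot for 43803 spots, per the file headers, and a table of processed intensity that the series' value table repeats; how its background was treated is not given in the sources used here, nor is a software version. The submitters' processing notes name Agilent Feature Extraction as the image software. No background or saturation column was used. Raw intensities were corrected by normexp (offset 50), log2-transformed and quantile-normalized, and spots of a probe averaged. The 24454 probes above background on at least 2 arrays were fitted by limma 3.58.1 in R 4.3.3 (lmFit and eBayes), and two-sided p-values were adjusted by Benjamini-Hochberg. For each of 11376 genes the brightest probe on test stands for the gene. The script was tested on simulated data. Nothing says that samples of a group came from separate clutches, so p-values measure the spread between these samples, which may be technical. With 2 arrays a group, their number limits the precision.

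The 47 hox symbols were found by gene identifier in the current gene table (assembly GRCz12tu, used for names and neighbours only), with 0 changed. The hox genes with a probe past the threshold, the markers hoxb1a, hoxb2a and hoxb5a whatever their values, and those with a log2 fold change of at least 1 in size were named in full; hoxb5b, hoxb6a, hoxb7a, hoxb8a, hoxc4a and hoxc6a were added after their values were seen, as were egr2b, vgll4l, irx1b, crestin, ltk and the cyp26, pbx and cdx genes. The members, the gene lists and the tests were chosen with earlier results of these data known.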

Additional observations from a re-analysis of the deposited data

How the results depend on the processing

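The 5 hox genes called higher became 0 with the wild-type mean as 1 sample (with or without trend and robust priors) and with slide as a random block, and ranged from 0 to 22 with 1 array left out, while genes called lower ranged from 0 to 6. By construction the first of these averages both wild-type arrays into 1 sample, and the last drops an array. The slide fit keeps all 4 arrays as samples and assumes a correlation of 0.5 within a slide. Hox probes called higher numbered 0 in the same 3 fits, 10 with scaling to the 75th percentile and 10 with the replicate block, and with 1 array left out 0 to 34 were higher and 0 to 10 lower. Same-numbered arrays deviated together with r = 0.0935 over 2 pairs, which does not show that the numbers pair them. With scaling to the 75th percentile the hox median came to 1.31, and it was 1.31 with the processed intensities, 1.27 with these scaled to the 75th percentile, 1.22 over the 8 genes above background on all 4 arrays, and -0.026 to 0.76 with 1 array left out; the cause was not tested. Over all probes, calls were 493 higher and 378 lower with scaling to the 75th percentile, 824 and 1217 with processed intensities scaled so, 1067 higher with processed intensities, 0 and 1 with wild type as 1 sample, 76 and 113 with trend and robust priors as well, 0 and 1 with slide as a block, and 0 to 7462 higher and 1 to 9565 lower with 1 array left out. The main counts were 1668 and 2208. Of 440 single-gene values under the alternatives, 15 turned sign. hoxa1a turned to 0.73 with scaling to the 75th percentile and 0.0055 with processed intensities, and hoxd3a to 0.33 as the mean of its probes. With 1 array left out, values ran from -0.24 to 0.60 for hoxa9a, -0.0015 to 1.47 for hoxb5b, -0.46 to 1.1 for hoxb8a, -0.11 to 0.48 for hoxb8b, -0.083 to 0.66 for hoxc11b, -0.17 to 0.67 for hoxc13a, -0.088 to 0.64 for hoxc3a, -0.31 to 1.42 for hoxc4a, -0.079 to 0.70 for hoxc6a, -0.15 to 1.09 for hoxc8a, -0.29 to 0.55 for hoxc9a and -0.026 to 0.69 for hoxd10a. Signal over background limits the 19 hox genes at or below background on Bmp2b array 1.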

Other observations

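Genes that flank the hox clusters were read as a description of the regions, by taking the 2 protein-coding genes on each side of each cluster in the current gene table, a rule added after the hox values were seen. Of 28 such genes 16 were on test, with a median log2 fold change of 0.25. Of these hnrnpa3, which flanks hoxda, rose (1.06 ± 0.13, limma adjusted p = 0.0234) and 0 fell. That is 1 of 16 called higher, where 9.0% of all genes were higher and 8.22% lower. cbx1a, for a chromatin protein that flanks hoxba, was at 0.73 ± 0.17 and did not pass (limma adjusted p = 0.0589). evx1, a homeobox gene that flanks hoxaa, was at 0.88 ± 0.32 (adjusted p = 0.134), and skap1, which flanks hoxbb, at -0.54 ± 0.15 (adjusted p = 0.0829).

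Of 14 hox genes with more than 1 tested probe, 3 had probes of opposite sign: hoxa1a, hoxc8a and hoxd3a.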
